A study of Mus musculus with 2 samples.

Results

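The subunits of oxidative phosphorylation were examined in single-cell RNA sequencing of the mouse aorta. The members were every gene whose symbol begins mt-Nd, mt-Co, mt-Cytb or mt-Atp, or Nduf followed by a, b, c, s or v, or Uqcr, Cox4 to Cox8 or Atp5, together with Sdha, Sdhb, Sdhc and Sdhd. This pattern took 107 of the 32285 genes measured. Of these, 13 are mitochondrially encoded subunits and 86 are nuclear encoded subunits. The other 8 (Ndufaf1 to Ndufaf8) are matched by the pattern but encode assembly factors of complex I, and they were kept apart. By complex, the mitochondrial and nuclear genes number 7 and 37 for complex I, 0 and 4 for complex II, 1 and 8 for complex III, 3 and 19 for complex IV (Ndufa4 and Ndufa4l2 included) and 2 and 17 for complex V. Cox7a2l, a factor of respiratory supercomplexes, makes up the rest of the nuclear set.

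Aortic cells came from wild-type mice and from MGP-KI mice, a knock-in of matrix Gla protein that the series title describes as a mutated form. All mice were 1 month old and both sexes were used in both groups. The sources used here do not give the number of mice in each suspension or the mutated residue. The adventitia had been stripped, the tissue digested and DAPI-positive dead cells sorted out, and each genotype gave 1 droplet library with the same batch label.

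With 1 library per genotype there is no replicate spread, so no test between genotypes was possible. Genotype and library cannot be told apart. Values are UMIs (unique molecular identifiers, which tag captured RNA molecules) summed over the cells of a group and given as CPM, that is, scaled to the total UMIs of that group as counts per 1000000. Ratios are knock-in over wild-type on the log2 scale, with 95% intervals that cover counting error only. A gene was counted as higher or lower past a 1.5-fold difference if it had at least 10 UMIs over both libraries.

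The respiratory chain passes electrons from NADH and succinate to oxygen through complexes I to IV, and complex V uses the resulting proton gradient to make ATP. The mitochondrial genome encodes core subunits of complexes I, III, IV and V, transcribed as long precursors that are cut into separate RNAs. All subunits of complex II and most of the others are made from nuclear genes and imported, so each finished complex other than complex II joins products of both genomes. Contractile vascular smooth muscle meets its energy demand through both glycolysis and respiration.

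The 3588 wild-type and 6089 knock-in cells kept had medians of 20395.5 and 11650 UMIs. SMC-like cells (smooth muscle cells) numbered 236 and 2338 in the wild-type and knock-in libraries, fibroblast-like cells 2704 and 2913, macrophage-like cells 352 and 292, and endothelial-like cells 64 and 46. All 9 smooth muscle markers were detected in SMC-like cells of both libraries, summing to 42611 and 39682 CPM, against 517 and 803 CPM in fibroblast-like cells. The 9 fibroblast markers summed to 35080 and 33978 CPM in fibroblast-like cells and to 2465 and 1549 CPM in SMC-like cells. Fibroblast-like cells made up the larger part of the wild-type cells although the adventitia had been removed. They fell into 3 clusters, led by Entpd2 and Cpz, by Fmod and Ccn5, and by Tmem100 and Ly6c1. The Fmod Ccn5 cluster also has Dio2, listed as a brown adipocyte marker, among its leading genes, while Ucp1, the defining gene of brown fat, had 0 UMIs there in both libraries. Clusters led by Sncg and Timp4, by Chrm3 and Rgs5, by Trbc2 and Mcpt4, and by the cycling genes Prc1 and Top2a stayed unnamed. No member was used for clustering, but cells with over 10% mitochondrially encoded UMIs were removed. Since the 13 mitochondrial members are all the mitochondrial genes in the files, that cap is set on the members themselves.

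The 2 shortest mitochondrial members are shown here because their ratios between libraries stood among the 3 highest of the 13 in all 4 named classes of cells. Both share bases with the next gene on the same strand, printed in capitals. GRCm38 places mt-Atp8 at chrM:7766-7969 and mt-Nd4l at chrM:9877-10173, both on the + strand and both as single-exon coding genes. The capitals are 43 bases that also begin mt-Atp6 and 7 bases that also begin mt-Nd4.
mt-Atp8: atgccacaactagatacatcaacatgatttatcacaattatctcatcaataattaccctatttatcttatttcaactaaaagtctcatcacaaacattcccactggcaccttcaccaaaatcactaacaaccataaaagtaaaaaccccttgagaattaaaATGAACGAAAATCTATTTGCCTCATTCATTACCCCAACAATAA
mt-Nd4l: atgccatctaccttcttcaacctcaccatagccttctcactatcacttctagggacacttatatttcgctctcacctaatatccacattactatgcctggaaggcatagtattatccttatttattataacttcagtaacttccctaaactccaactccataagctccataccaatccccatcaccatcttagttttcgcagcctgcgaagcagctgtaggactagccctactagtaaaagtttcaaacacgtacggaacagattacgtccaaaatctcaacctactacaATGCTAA
The third, mt-Nd3 (chrM:9459-9806, + strand), overlaps no other of these genes. As background, mt-Atp8 with mt-Atp6 and mt-Nd4l with mt-Nd4 are each read from a shared mature RNA.

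Mitochondrially encoded subunits took the largest share of UMIs in SMC-like and macrophage-like cells and the smallest in fibroblast-like cells, among the 4 named classes and in both libraries. In the wild-type library the share was 3.76% in macrophage-like, 3.36% in SMC-like, 2.70% in endothelial-like and 1.77% in fibroblast-like cells. In the knock-in library it was 4.62% in SMC-like, 3.62% in macrophage-like, 3.12% in endothelial-like and 2.06% in fibroblast-like cells. SMC-like and macrophage-like cells therefore stood in a different order in each library. Single cells spread widely around these sums. The 10th and 90th percentiles of the share per cell were 2.471% and 4.556% in wild-type SMC-like cells and 3.496% and 6.001% in knock-in SMC-like cells, so the ranges overlapped. In fibroblast-like cells they were 1.03% and 2.42%, and 0.99% and 3.02%.

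Nuclear encoded subunits kept to a narrower range. Their share was 2.13% and 2.35% of UMIs (wild-type first) in SMC-like cells. It was 1.82% and 1.79% in endothelial-like, 1.69% and 1.98% in fibroblast-like, and 1.55% and 1.55% in macrophage-like cells. Macrophage-like cells thus had the lowest nuclear share with a high mitochondrial share. Their ratio of mitochondrial to nuclear encoded UMIs was 2.43 and 2.34, against 1.58 and 1.97 in SMC-like, 1.49 and 1.75 in endothelial-like and 1.05 and 1.04 in fibroblast-like cells. In the Entpd2 Cpz cluster that ratio was below 1, at 0.71 and 0.66. Over 8 points (4 classes in 2 libraries) the summed mitochondrial and nuclear levels correlated with r = 0.21, a description of points that share libraries.

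**Figure D1:**
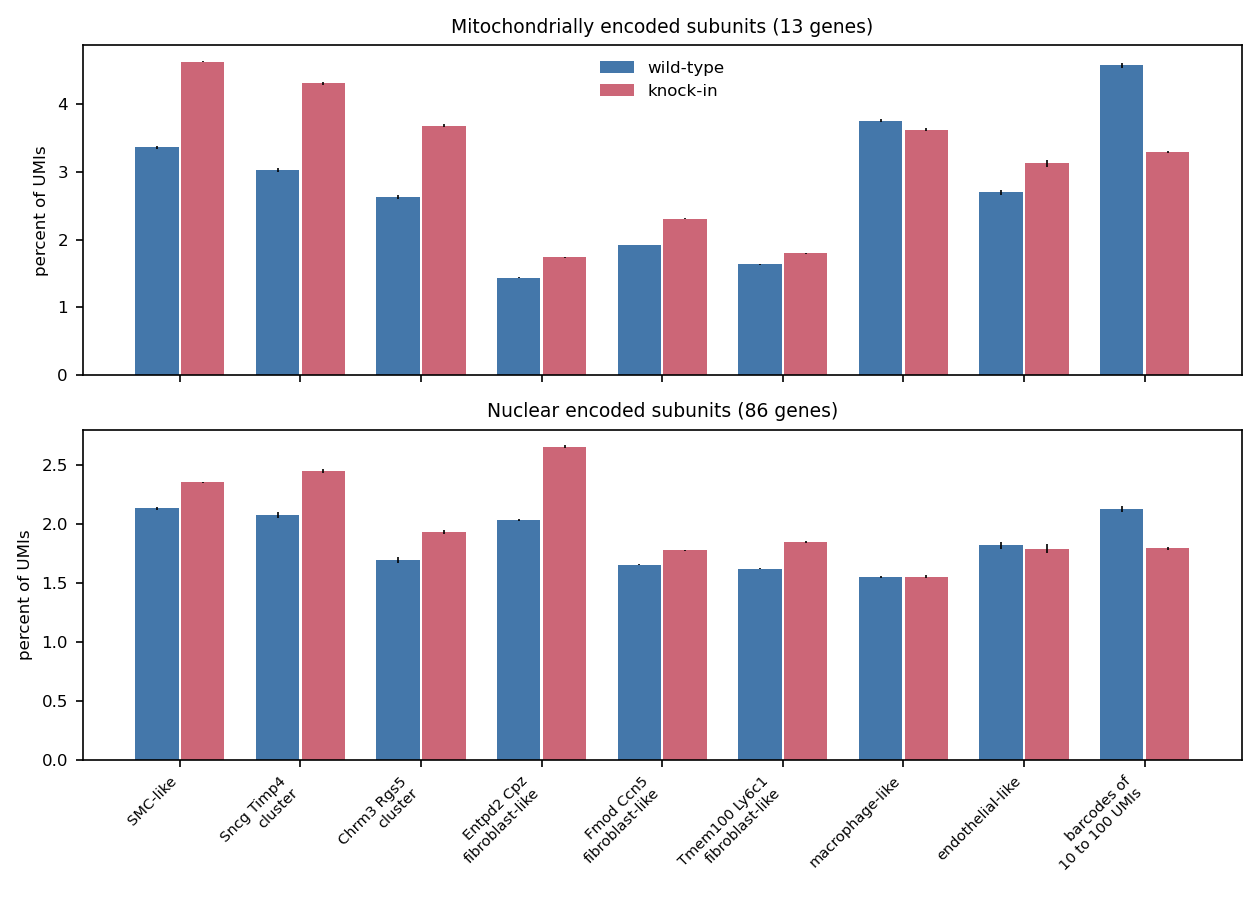
Percent of all UMIs from the 13 mitochondrially encoded (top) and 86 nuclear encoded (bottom) subunit genes in 8 groups of cells and in low-UMI barcodes, by library, with counting intervals. In SMC-like cells the mitochondrial share is 3.36% (wild-type) and 4.62% (knock-in), while in barcodes of 10 to 100 UMIs it is 4.57% and 3.29%.

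Summed over the 13 genes, the mitochondrial signal was higher in the knock-in library in SMC-like cells, with a log2 ratio of 0.46 (interval 0.45 to 0.47). It was 0.22 (0.22 to 0.23) in fibroblast-like cells, 0.21 (0.18 to 0.24) in endothelial-like cells and -0.05 (-0.06 to -0.04) in macrophage-like cells. The unnamed Sncg Timp4 and Chrm3 Rgs5 clusters had 0.51 and 0.49, close to the SMC-like value, the cycling cluster had 0.61 and the Trbc2 Mcpt4 cluster -0.02. Over all kept cells the ratio was 0.72 (0.71 to 0.72), larger than in any named class. SMC-like cells made up 236 of 3588 cells in the first library and 2338 of 6089 in the second, so the makeup of the libraries moved with it. Barcodes of 10 to 100 UMIs, which hold mostly free RNA, went the other way with -0.47 (-0.49 to -0.46). The part of free RNA in the cells' values was not tested.

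The nuclear encoded sum differed by less in SMC-like cells, at 0.14 (0.13 to 0.15). In fibroblast-like cells it was 0.23 (0.22 to 0.23), close to the mitochondrial sum for the class as a whole. It was 0.00 (-0.01 to 0.02) in macrophage-like and -0.02 (-0.06 to 0.02) in endothelial-like cells. Of the unnamed clusters, Trbc2 Mcpt4 had 0.82, on 7 and 32 cells, where its mitochondrial sum was at -0.02. The cycling cluster had 0.34, Sncg Timp4 0.24 and Chrm3 Rgs5 0.19. Among the fibroblast-like clusters the nuclear sum was 0.39 in Entpd2 Cpz, 0.10 in Fmod Ccn5 and 0.19 in Tmem100 Ly6c1. The mitochondrial sum was 0.27, 0.27 and 0.14 there, so the 2 sums were apart in each cluster. These clusters held 565 and 1171, 1374 and 1316, and 765 and 426 cells (wild-type first), so the makeup of the class moved with its sums. Its part was not tested. Depth moved with the nuclear difference as well. Fibroblast-like cells had medians of 21515 and 10856 UMIs, and the nuclear share per cell correlated with a cell's total UMIs at Spearman rho = -0.41 (wild-type) and -0.73 (knock-in). In fibroblast-like cells of 8000 to 20000 UMIs the median ratio over nuclear subunits was -0.07, against 0.09 in all fibroblast-like cells.

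Read gene by gene, all 13 mitochondrial members were above 0 in SMC-like cells, with a median log2 ratio of 0.50. Past 1.5-fold, 6 of 13 were higher and 0 were lower, where 12.6% of the 15013 genes measured were higher and 11.8% lower. The median of all genes measured there was -0.04. In fibroblast-like cells the median of the 13 was 0.31 and 3 were higher, where 12.0% of 17396 genes were higher and 10.4% lower. In macrophage-like cells the median was 0.02, 3 were higher and 0 lower, against 9.09% and 12.6% of 12551 genes. In endothelial-like cells the median was 0.22, 4 were higher and 0 lower, against 15.4% and 16.2% of 9566 genes.

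The same 3 genes, mt-Atp8, mt-Nd3 and mt-Nd4l, were past 1.5-fold in all 4 classes, with mt-Nd4l in macrophage-like cells just past it at 0.59 and at 0.53 with a mitochondrial cap of 20%. mt-Atp8, a small stator subunit of complex V, had 81.5 CPM in SMC-like cells of the wild-type library and 426 CPM in those of the knock-in library, which is 2.38 on the log2 scale (2.23 to 2.54). In fibroblast-like cells it had 44.2 and 169 CPM, a ratio of 1.93 (1.866 to 2.003). The ratio was 1.41 (1.25 to 1.59) in macrophage-like and 2.04 (1.63 to 2.48) in endothelial-like cells. The knock-in library was therefore higher in every class for this gene, by the widest margin of the 13. mt-Atp6, the proton channel subunit read from the same RNA, had 6207 and 8621 CPM in SMC-like cells and 3216 and 3683 CPM in fibroblast-like cells. Its ratios, 0.47 and 0.20, were far smaller, and in macrophage-like cells it was at -0.09.

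mt-Nd3 and mt-Nd4l, membrane arm subunits of complex I, followed mt-Atp8. mt-Nd3 had 627 and 1942 CPM in SMC-like cells (ratio 1.63, 1.58 to 1.69) and 339 and 803 CPM in fibroblast-like cells (1.25, 1.22 to 1.27). mt-Nd4l had 443 and 1198 CPM in SMC-like cells (1.437, 1.372 to 1.504) and 237 and 537 CPM in fibroblast-like cells (1.18, 1.14 to 1.21). Its partner mt-Nd4 had 2591 and 2887 CPM in SMC-like cells (0.16, 0.13 to 0.18) and 1334 and 1247 CPM in fibroblast-like cells (-0.10, -0.11 to -0.08). For both gene pairs on a shared RNA, then, the short upstream gene had the higher ratio. Of the longer downstream genes in SMC-like cells, mt-Nd4 was nearly level, while mt-Atp6 at 0.47 was close to the median of the 13. Together mt-Atp8, mt-Nd3 and mt-Nd4l made up 0.24%, 1.87% and 1.32% of mitochondrial UMIs in wild-type SMC-like cells, and 0.92%, 4.201% and 2.59% in knock-in SMC-like cells.

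The other complex I genes lay between these extremes in SMC-like cells. mt-Nd6, the member encoded on the other strand, had 23.8 and 48.0 CPM there (1.01, 0.73 to 1.31), on 105 wild-type UMIs. mt-Nd5 was at 0.73, mt-Nd2 at 0.66 and mt-Nd1 at 0.41. In fibroblast-like cells these 4 were at 0.31, 0.43, 0.35 and 0.18, each on the same side of 0 as in SMC-like cells.

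For complex III, mt-Cytb (cytochrome b) had 4686 and 5312 CPM in SMC-like cells (0.18, 0.16 to 0.20) and 2738 and 2816 CPM in fibroblast-like cells (0.04, 0.03 to 0.05). In macrophage-like cells it was lower in the knock-in library, at 3950 and 3083 CPM (-0.36, -0.39 to -0.32). The 3 genes of the catalytic core of complex IV were all above 0 in SMC-like and fibroblast-like cells, with mt-Co1 the highest. In SMC-like cells mt-Co1 was at 0.50, mt-Co2 at 0.37 and mt-Co3 at 0.38, and in fibroblast-like cells they were at 0.31, 0.17 and 0.15. In macrophage-like cells they parted, with mt-Co1 at 0.12 (0.10 to 0.15), mt-Co2 at -0.09 and mt-Co3 at -0.14 (-0.17 to -0.12). In barcodes of 10 to 100 UMIs mt-Atp8 was at 0.81 and mt-Nd4l at 0.32, while mt-Nd3 was at 0.01 and the other 10 genes were below 0.

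In 2 unnamed clusters mt-Atp8, mt-Nd3 and mt-Nd4l were not the 3 highest genes. In the cycling cluster mt-Atp8 was at 2.60, but mt-Nd4l at 1.05 was below mt-Nd6 at 1.22 and mt-Nd5 at 1.16. In the Trbc2 Mcpt4 cluster, of 7 and 32 cells, mt-Nd4l at 0.24 was below mt-Co1 at 0.36, and mt-Nd4 was at -0.58.

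**Figure D2:**
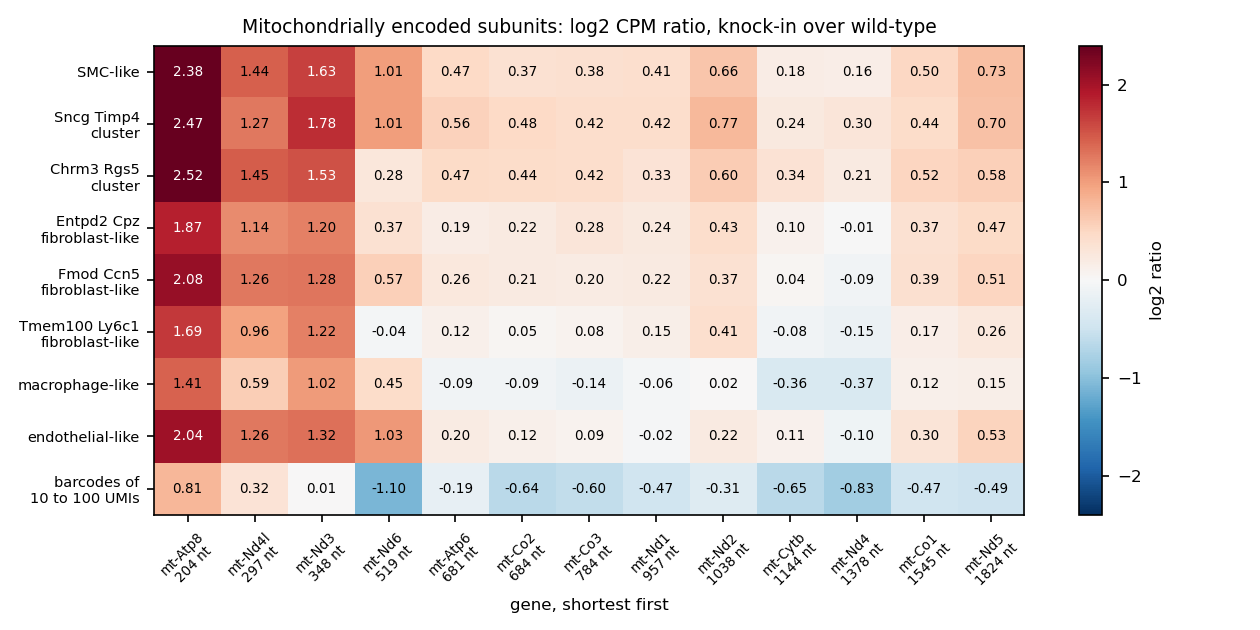
Log2 CPM ratio, knock-in over wild-type, of each mitochondrially encoded subunit (columns, shortest gene first, length in nucleotides) in 8 groups of cells and in low-UMI barcodes (rows). The 3 leftmost columns are the highest in each of the 8 rows of cells shown, from 0.59 to 2.52, while mt-Nd4 and mt-Cytb stay between -0.37 and 0.34 there. The cycling and Trbc2 Mcpt4 clusters are not drawn.

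The nuclear encoded subunits as a set were near level. In SMC-like cells 82 of 86 reached 10 UMIs, with a median log2 ratio of 0.01, 43 above and 39 below 0, and 5 higher and 3 lower past 1.5-fold. In fibroblast-like cells 85 were measured, with a median of 0.09, 55 above 0, and 8 higher and 1 lower. In cells of 8000 to 20000 UMIs the medians were -0.04 in SMC-like and -0.07 in fibroblast-like cells, and 3 subunits were higher past 1.5-fold in each. In the fibroblast-like cells of that window Ndufa5 and Ndufa1 were at 0.34 and 0.42, and Ndufa3 and Atp5md at 0.58 and 0.57, all under 1.5-fold. In macrophage-like cells 82 were measured with a median of -0.05, 3 higher and 1 lower. In endothelial-like cells 79 were measured with a median of -0.14, 3 higher and 8 lower. As shares of the subunits measured, these counts, at the minimum of 10 UMIs, are below the shares of all genes given above in each class and direction. Among genes of at least 50 UMIs the shares of all genes past the fold were 8.71% higher and 7.08% lower in SMC-like cells, and 7.33% and 7.48% in fibroblast-like cells. At that floor 5 of 81 nuclear subunits were higher and 2 lower in SMC-like cells, smaller shares than those of all genes. In fibroblast-like cells 7 of 83 were higher, a larger share than that of all genes, and 0 lower.

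Complex I, which oxidises NADH, had a median of 0.00 over its 37 nuclear genes in SMC-like cells and 0.06 in fibroblast-like cells. Ndufa13, the member of complex I with the most UMIs in those 2 classes, had 504 and 545 CPM in SMC-like cells and 421 and 497 CPM in fibroblast-like cells. Ndufb1-ps, the mouse locus for subunit B1, had 280 and 570 CPM in SMC-like cells (1.03, 0.94 to 1.11) and 201 and 401 CPM in fibroblast-like cells (1.00, 0.96 to 1.04). It was the highest nuclear gene of complex I in all 4 classes, with 0.70 in macrophage-like and 0.64 in endothelial-like cells. Ndufa3, an accessory subunit, had 170 and 264 CPM in SMC-like cells (0.63, 0.52 to 0.74) and 157 and 268 CPM in fibroblast-like cells (0.77, 0.73 to 0.82). In fibroblast-like cells Ndufa1 (240 and 376 CPM, ratio 0.64) and Ndufa5 (152 and 231 CPM, ratio 0.60) also passed 1.5-fold. These 4 are accessory subunits, outside the core that carries out catalysis.

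At the other end, Ndufv2, an iron-sulfur subunit of the catalytic core, was the lowest complex I gene in SMC-like cells with 146 and 121 CPM (-0.28, -0.40 to -0.16). In macrophage-like cells the lowest was Ndufb11, an accessory subunit, at 178 and 131 CPM (-0.44, -0.60 to -0.28). In endothelial-like cells 7 of 37 nuclear complex I genes were past 1.5-fold lower, where 16.2% of the 9566 genes measured were lower. The lowest was the core subunit Ndufs7 with 124 and 36 UMIs (-0.87, -1.46 to -0.34). Its 95% interval stayed below 0, as did those of Ndufa8, Ndufa12, Ndufb8 and Ndufv2, while that of Ndufa9 reached above 0. Markers of other cells moved with these values in endothelial-like cells: the 9 fibroblast markers summed to 626 and 2483 CPM, the 9 smooth muscle markers to 1362 and 716 CPM, the 5 lymphatic endothelial markers to 273 and 49.9 CPM and the 6 cycling markers to 126 and 6.24 CPM. Their part in the result was not tested.

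Complex II is succinate dehydrogenase, with 4 genes. In SMC-like cells Sdhc, a membrane anchor, had 81.5 and 97.2 CPM (0.25, 0.10 to 0.42), and Sdhb, the iron-sulfur subunit, had 86.5 and 77.7 CPM (-0.16, -0.31 to 0.00). In fibroblast-like cells Sdhb was at -0.14 (-0.21 to -0.08) and Sdhd, the other anchor, at 0.00 (-0.09 to 0.09). No member of complex II was past 1.5-fold in SMC-like, fibroblast-like or macrophage-like cells. Sdha, the flavoprotein, was higher in knock-in endothelial-like cells, with 72 and 60 UMIs (0.64, 0.12 to 1.15).

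In complex III, which passes electrons to cytochrome c, Uqcr10 and Uqcrfs1 parted. Uqcr10, a small accessory subunit, was the highest in SMC-like cells with 286 and 402 CPM (0.49, 0.41 to 0.58), and in fibroblast-like cells with 223 and 315 CPM (0.50, 0.46 to 0.53). Uqcrfs1, the Rieske iron-sulfur protein, was the lowest nuclear gene in all 4 classes. It had 100 and 72.0 CPM in SMC-like cells (-0.48, -0.62 to -0.32) and 71.1 and 63.4 CPM in fibroblast-like cells (-0.16, -0.24 to -0.09). Uqcrh, the hinge protein and the most counted of the 8, was level in SMC-like cells at 550 and 552 CPM.

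For the nuclear shell of complex IV, the oxidase, the most counted genes were small ones. Cox7c had 804 and 1095 CPM in SMC-like cells (0.45, 0.40 to 0.50), and Cox6c had 515 and 691 CPM in fibroblast-like cells (0.42, 0.40 to 0.45). Cox4i1, the usual form of subunit 4, had 917 and 853 CPM in SMC-like cells (-0.10, -0.15 to -0.06). Cox5a was the lowest complex IV gene of at least 50 UMIs in macrophage-like cells, with 279 and 195 CPM (-0.52, -0.65 to -0.39), and in fibroblast-like cells, with 151 and 131 CPM (-0.21, -0.26 to -0.16).

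In complex V, the ATP synthase, Atp5k (subunit e, at the dimer interface) was the highest nuclear gene in all 4 classes. It had 255 and 529 CPM in SMC-like cells (1.06, 0.97 to 1.14) and 171 and 362 CPM in fibroblast-like cells (1.08, 1.04 to 1.12), with 0.83 in macrophage-like and 0.90 in endothelial-like cells. Atp5md, another small subunit of the membrane part, had 254 and 381 CPM in SMC-like cells (0.59, 0.50 to 0.68) and 194 and 346 CPM in fibroblast-like cells (0.84, 0.80 to 0.87). Atp5e, the epsilon subunit of the central stalk and the most counted gene of complex V, was at 0.37 and 0.54. The catalytic subunits did not share this: in SMC-like cells Atp5b (beta) had 394 and 380 CPM (-0.05, -0.12 to 0.02) and Atp5a1 (alpha) had 308 and 294 CPM (-0.07, -0.15 to 0.02). Atp5b and Atp5a1 in SMC-like cells were added after their values were seen. The lowest nuclear gene was Atp5d, the delta subunit of the central stalk, in SMC-like cells with 336 and 274 CPM (-0.30, -0.38 to -0.22) and in macrophage-like cells at -0.45 (-0.59 to -0.31). In fibroblast-like cells it was Atp5f1, a subunit of the peripheral stalk, at -0.20 (-0.24 to -0.16), and in endothelial-like cells Atp5g3, of the membrane ring, at -0.48 (-0.97 to -0.03).

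**Figure D3:**
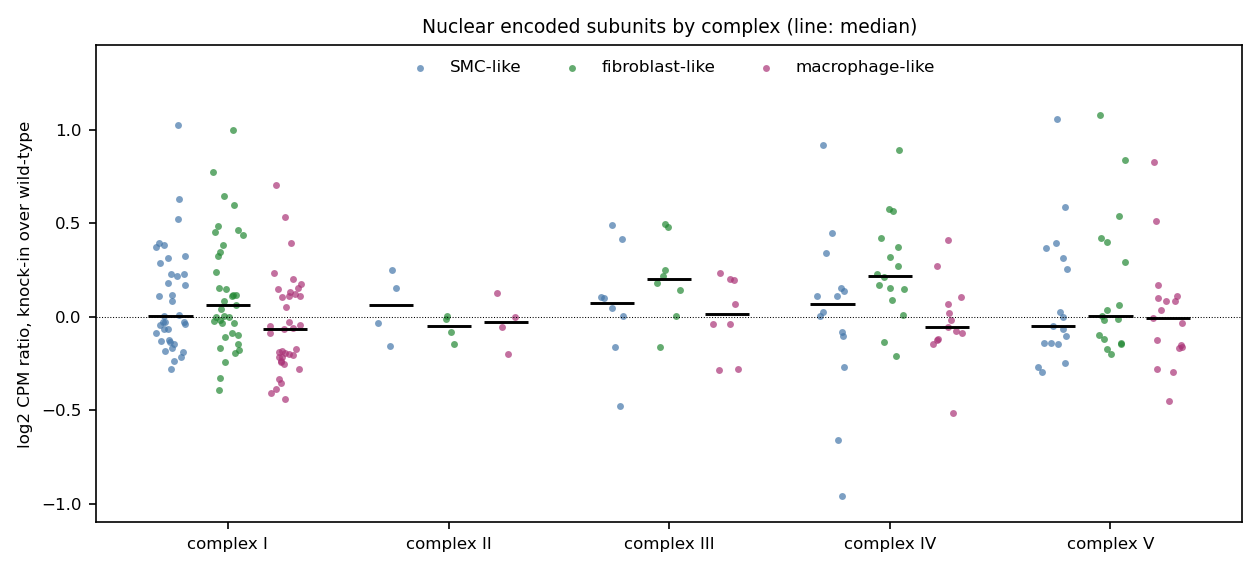
Log2 CPM ratio, knock-in over wild-type, of each nuclear encoded subunit with at least 50 UMIs, by complex and class of cells, with the median of each set as a line. Most points lie within 0.5 of 0, and the highest points in complexes I and V are Ndufb1-ps and Atp5k in all 3 classes shown.

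Among the subunits, shorter annotated lengths went with higher ratios, with exceptions. For mitochondrial genes the length is the span of the gene, not of the mature RNA. mt-Atp8 (204 bases) and mt-Nd4l (297 bases) thus count as short although each shares a longer RNA with its partner. Past 1.5-fold in SMC-like cells, mt-Nd5 (1824 bases), mt-Nd2 (1038 bases) and mt-Nd6 (519 bases) are longer, as is Ndufa5 (875 bases) in fibroblast-like cells. With lengths from the GENCODE vM21 annotation, which gave a length for all 107 members, the ratio in fibroblast-like cells correlated with transcript length at Spearman rho = -0.65 over 83 nuclear subunits of at least 50 UMIs, and at rho = -0.51 over the 13 mitochondrial genes. In SMC-like cells rho was -0.42 over 81 nuclear subunits and -0.58 over the 13. In macrophage-like cells the values were -0.35 and -0.55. These are descriptions across genes, which share libraries and are not independent replicates. Over all other genes of at least 50 UMIs rho was 0.11 in SMC-like, -0.03 in fibroblast-like and 0.19 in macrophage-like cells.

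By size, the 15 nuclear subunits under 500 bases had a median ratio of 0.37 in SMC-like cells, and the 66 of 500 bases or more had -0.03. In fibroblast-like cells the medians were 0.48 over 15 and 0.01 over 68. Other genes under 400 bases showed the same sign when summed, at 0.89 over 164 genes in SMC-like cells and 1.06 over 255 genes in fibroblast-like cells, although their medians were 0.12 and -0.02. Sum and median thus differ in size, and in sign in fibroblast-like cells. Among mitochondrial genes, the 10 of 500 bases or more had a median of 0.44 in SMC-like cells, 0.19 in fibroblast-like cells and -0.07 in macrophage-like cells. The difference in SMC-like cells thus remained among the longer mitochondrial genes, where all 10 were above 0.

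In barcodes of 10 to 100 UMIs the length relation of the nuclear subunits had the other sign, with rho = 0.21 over 81 genes. For the 13 mitochondrial genes it was -0.52, near the value in cells. The part of library preparation in these values was not tested, and library and genotype cannot be told apart.

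**Figure D4:**
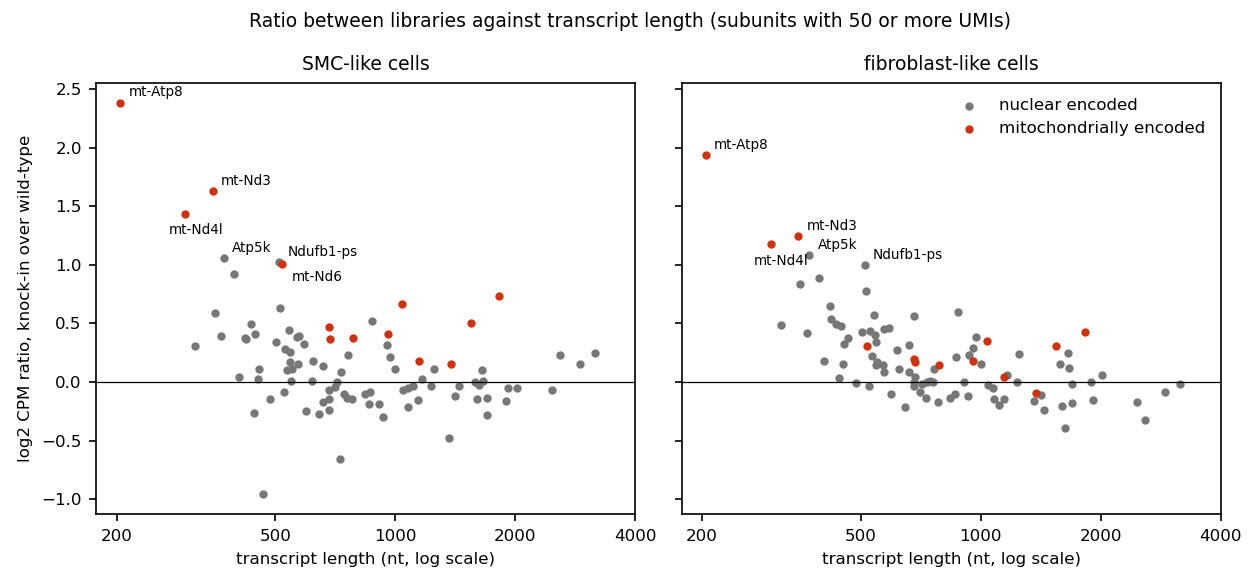
Log2 CPM ratio, knock-in over wild-type, against annotated transcript length (log axis) for subunits with at least 50 UMIs in SMC-like (left) and fibroblast-like (right) cells. For mitochondrial genes the length is the span of the gene. The highest points, mt-Atp8, mt-Nd3, mt-Nd4l and Atp5k, are all under 400 nucleotides, and Ndufb1-ps, the next highest, has 511. Points beyond 1000 nucleotides stay below 0.75.

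Alternative forms of some complex IV subunits marked cell groups more sharply than they differed between libraries. Ndufa4l2, the hypoxia-inducible relative of Ndufa4, had 224 and 262 CPM in fibroblast-like cells. It made up 37.0% (36.5% to 37.5%, exact binomial interval) and 38.3% (37.6% to 38.9%) of the UMIs of Ndufa4 and Ndufa4l2 there. In SMC-like cells it had 2.04 and 0.68 CPM, or 0.37% and 0.12% of the pair. Among fibroblast-like clusters the share was 44.0% and 43.3% in Entpd2 Cpz, 42.2% and 42.3% in Fmod Ccn5, and 21.7% and 17.3% in Tmem100 Ly6c1. The gene is among the leading genes of the Entpd2 Cpz cluster, but it was not used for clustering. Macrophage-like cells had 4.60 and 2.49 CPM, and barcodes of 10 to 100 UMIs had 137 and 88.2 CPM. The levels in SMC-like and macrophage-like cells lie below that of free RNA and were not read as expression.

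Cox4i2, the oxygen-responsive form of subunit 4, was a minor form throughout. Its highest levels were in the Chrm3 Rgs5 cluster with 34.4 and 54.9 CPM and in the Sncg Timp4 cluster with 33.6 and 53.3 CPM. There it made up 4.95% (3.41% to 6.91%) and 7.61% (6.37% to 9.01%), and 3.87% and 6.54%, of subunit 4 UMIs. SMC-like cells had 19.0 and 12.1 CPM (-0.657, -0.996 to -0.292), where the Chrm3 Rgs5 cluster was at 0.66 (0.10 to 1.28). Barcodes of 10 to 100 UMIs had 6.84 and 13.2 CPM (0.89, -0.08 to 2.11). The knock-in SMC-like value is no higher than that of free RNA, whose part in it was not tested. In endothelial-like cells 0 of 638 and 0 of 315 subunit 4 UMIs were Cox4i2, which allows shares of up to 0.58% and 1.16% (exact binomial interval). Macrophage-like cells had 3 and 4 UMIs of it.

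Cox6b2, known as a testis form of subunit 6b, had 45.9 CPM over 110 wild-type and 77.2 CPM over 28 knock-in cells of the cycling cluster, the highest level in the knock-in library. In the wild-type library the Trbc2 Mcpt4 cluster was higher, at 67.1 CPM, on 8 UMIs in 7 cells. It had 17.2 and 8.90 CPM in SMC-like cells (-0.96, -1.32 to -0.57) and 12.5 and 16.2 CPM in fibroblast-like cells (0.37, 0.21 to 0.54). Barcodes of 10 to 100 UMIs had 19.2 and 12.8 CPM of it, above both SMC-like values and the wild-type fibroblast-like value. The part of free RNA in those 3 values was not tested. Of Ndufa4l2, SMC-like cells had 2.04 and 0.68 CPM where those barcodes had 137 and 88.2 CPM. Cox7a1, the heart and muscle form of subunit 7a, was highest in macrophage-like cells among the named classes with 14.9 and 14.7 CPM, on 81 and 53 UMIs. In SMC-like cells it had 1.13 and 2.34 CPM, in fibroblast-like cells 1.53 and 2.83 CPM. Barcodes of 10 to 100 UMIs had 12.3 and 0.66 CPM of it. The wild-type macrophage-like value is near the level of free RNA and the knock-in value is above it. The part of free RNA in these values was not tested.

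The other muscle forms were rare in cells, with 65 and 55 UMIs of Cox6a2 and 45 and 9 of Cox8b over all kept cells, and their CPM was higher in free RNA of the wild-type library. Cox6a2 had 45 UMIs (30.8 CPM) in wild-type and 3 UMIs (0.99 CPM) in knock-in barcodes of 10 to 100 UMIs, against 0.77 and 1.14 CPM in fibroblast-like cells and 1 UMI in each library in SMC-like cells. Cox8b had 12 and 1 UMIs (8.21 and 0.33 CPM) in those barcodes, 40 and 8 UMIs (0.70 and 0.25 CPM) in fibroblast-like cells. SMC-like cells of both libraries had 0. The cardiac muscle gene Actc1 had 43 and 10 UMIs in the same barcodes, while Myh6, another cardiac muscle gene, had only 2 and 1. Actc1 was also found in SMC-like cells, with 38 and 148 UMIs. Cox7b2 had 2 and 8 UMIs in fibroblast-like cells, and Cox8c had 0 UMIs in SMC-like and fibroblast-like cells.

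**Figure D5:**
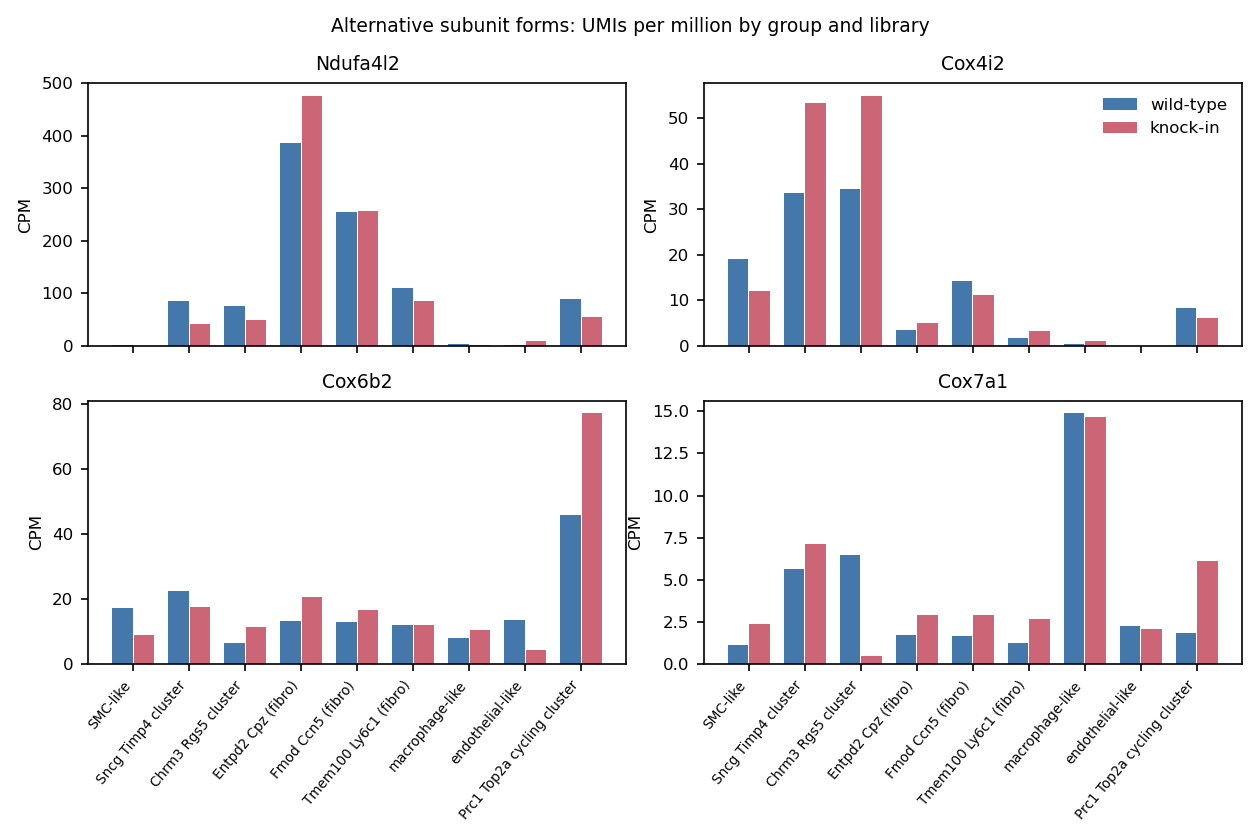
CPM of 4 alternative subunit forms in 9 groups of cells, by library (bars start at 0, scales differ, the Trbc2 Mcpt4 cluster is not drawn). Among these groups Ndufa4l2 is highest in the Entpd2 Cpz and Fmod Ccn5 fibroblast-like clusters, Cox4i2 in the Sncg Timp4 and Chrm3 Rgs5 clusters, Cox6b2 in the cycling cluster and Cox7a1 in macrophage-like cells.

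The 8 Ndufaf assembly factors summed to 226 and 240 CPM in SMC-like cells (0.09, -0.01 to 0.18) and to 197 and 218 CPM in fibroblast-like cells (0.14, 0.10 to 0.19). In both classes 0 of 8 were past 1.5-fold. Ndufaf8 had the most UMIs, with 73.3 and 83.0 CPM in SMC-like cells, and Ndufaf2 the highest ratio, 0.24 (0.04 to 0.46).

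Lists of related genes were near level, though some share genes with the members. The assembly factor list includes the Ndufaf genes, and the hypoxia response list includes Ndufa4l2 and Cox4i2. In SMC-like cells the median was -0.06 over 22 genes of mitochondrial biogenesis and mtDNA expression (2 higher, 2 lower), 0.03 over 16 genes of the TCA cycle (0 and 0), -0.07 over 45 assembly factors (2 and 3) and -0.15 over 78 proteins of the mitochondrial ribosome (0 and 0). In fibroblast-like cells these medians were -0.07, -0.11, -0.05 and -0.08. The cytosolic ribosome was at -0.03 over 81 genes and -0.01 over 80. For 12 genes of the hypoxia response the medians were -0.03 and -0.18, and for 17 carriers and mobile electron carrier genes -0.16 and -0.14.

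Within these lists, the genes next to the chain differed as follows, chosen after their values were seen. Cycs, which encodes cytochrome c, was lower in the knock-in library, with 88.5 and 68.4 CPM in SMC-like cells (-0.37, -0.53 to -0.21) and 84.0 and 60.4 CPM in fibroblast-like cells (-0.48, -0.55 to -0.40). In barcodes of 10 to 100 UMIs it was at -0.66. Ucp2, a mitochondrial carrier, had 29.3 and 7.72 CPM in fibroblast-like cells (-1.92, -2.12 to -1.73) and 485 and 591 CPM in macrophage-like cells (0.28, 0.20 to 0.37). Barcodes of 10 to 100 UMIs had 73.2 and 66.8 CPM of Ucp2, above the fibroblast-like level in both libraries. The part of free RNA in the fibroblast-like values was not tested. Pet100, a complex IV assembly factor, was above 0 in all 4 classes, from 0.61 in macrophage-like to 1.07 in endothelial-like cells.

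Promoters of the nuclear subunits were searched for motifs of 2 factors known to act on respiratory genes, in the RefSeq promoter table (GRCm38.p6). There 70 of 86 matched by symbol or by a RefSeq synonym. In the 250 bases before the start site, the ETS core CCGGAAG was present on either strand in 11 of 70 (15.7%), against 7.05% of 27025 promoters. The NRF1 core GCGCATGCG was present in 6 of 70 (8.57%), against 1.49%. It can overlap its own reverse complement, counted once per promoter, and can share at most an end base with the ETS core. Atp5l and Cox6a1 held both, and this list may not be complete. A match describes letters only and shows no binding.

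By a fixed measure, the correlation of log2(CPM + 10) over the same 8 points, the genes most like the summed nuclear subunits were Malat1 (r = 0.98), Klf15 (0.97), Smtn (0.97), Smim26 (0.96) and Snrpd2 (0.96), of 9094 genes compared. SMC-like and other cells of 2 libraries share all 8 points, so this is a description of class levels.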

How the data were processed

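The authors deposited whole-number UMI counts for each gene in each barcode, with no filter to cells. The submitters' processing notes name Cell Ranger 7.1.0. No source used here gives the alignment settings, genome build or chemistry. The libraries held 79626104 (wild-type) and 85831737 (knock-in) UMIs, and 6 barcodes of at least 1000 UMIs were shared. Barcodes were kept as cells from 1000 UMIs and 500 genes upward if no more than 10% of their UMIs were mitochondrially encoded. The highest doublet scores (0.8% per 1000 cells) were removed with scrublet in scanpy 1.11.5. Both libraries were clustered together (2000 variable genes without the members, 30 components, 15 neighbours, Leiden resolution 0.5). Clusters were named by mean log2 gain of marker lists (limit 0.65, at least 3 markers detected, no more leading genes of another class than of its own), a rule set after the clusters were seen.

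Ratios used a pseudocount of 0.5 UMIs, with exact conditional binomial intervals. The intervals were tried on simulated counts with counting error only, so differences between cells, mice or libraries were not covered. A random sample of the 12037 genes of SMC-like cells and of the 14073 genes of fibroblast-like cells was changed. Of those changed by log2 1, 93% and 99% had intervals beyond 0. Named genes were the 13 mitochondrial members, per complex the nuclear member with the most UMIs and those with the highest and lowest ratio (at least 50 UMIs), those past 1.5-fold with at least 50 UMIs in SMC-like or fibroblast-like cells, and the alternative forms. The transcript length is that of the shortest APPRIS principal transcript, which for the mitochondrial genes equals the span of the gene. GRCm38 coordinates are those of GENCODE vM21, not of the files. The results were recomputed under 12 other settings, and under 3 more chosen after seeing the data. The members and lists were chosen with earlier results of these data known. A gene that the rule for named genes selects is not reported here.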

Additional observations from a re-analysis of the deposited data

Results flagged for a closer look

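A rule for ratios that differ between SMC-like and fibroblast-like cells flagged 3 genes, each with opposite signs in the 2 classes. They are not the only members with opposite signs. Ndufs1, for one, was at 0.23 in SMC-like and -0.33 in fibroblast-like cells, and Atp5g2 at -0.27 and 0.04. These differences were not tested, since each class has 1 library per genotype. Cox6b2 was at -0.96 in SMC-like and 0.37 in fibroblast-like cells, and in fibroblast-like cells of 8000 to 20000 UMIs it was at -0.23, so the opposite sign does not hold there. Free RNA, in barcodes of 10 to 100 UMIs, had 19.2 and 12.8 CPM of Cox6b2, above both SMC-like values and the wild-type fibroblast-like value. Ndufa4l2 was at -1.62 in SMC-like cells, on 9 and 21 UMIs, and at 0.23 in fibroblast-like cells, with -0.35 in the Tmem100 Ly6c1 cluster. Free RNA held more of it than SMC-like cells did. mt-Nd4 was at 0.16 in SMC-like and -0.10 in fibroblast-like cells.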

How the results depend on the processing

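No paired analysis was possible because each genotype has 1 library. The direction of the mitochondrial medians held under every setting run in SMC-like (0.39 to 0.58) and fibroblast-like cells (0.15 to 0.37).

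The SMC-like mitochondrial median of 0.50 became 0.39 with a 5% cap, 0.46 in cells of 8000 to 20000 UMIs, 0.45 in female and 0.58 in male cells, and 0.44 over members of 500 or more bases. The fibroblast-like mitochondrial median of 0.31 became 0.18 at Leiden resolution 1.0, 0.34 in the UMI window, 0.35 in female and 0.27 in male cells, 0.37 in the largest cluster (Fmod Ccn5), 0.37 in Entpd2 Cpz, 0.15 in Tmem100 Ly6c1 and 0.19 over members of 500 or more bases. The fibroblast-like nuclear median of 0.09 changed sign to -0.066 in the UMI window and -0.029 in the largest cluster, and was 0.038 in female cells, 0.025 in male cells, 0.20 in Entpd2 Cpz and 0.0087 over the longer members. The 5 nuclear subunits higher in SMC-like cells became 3 in the UMI window, 3 in male cells and 2 among the longer members. The 8 higher in fibroblast-like cells became 3 in the UMI window, 16 in Entpd2 Cpz and 4 among the longer members. In Entpd2 Cpz these were 16 of 83 subunits of at least 10 UMIs. Of all genes of at least 50 UMIs in that cluster, a stricter floor, 6.17% were higher. The 1 lower in fibroblast-like cells, Cox8b, became 0 with at least 50 UMIs, in Entpd2 Cpz and among the longer members. The cause of these changes was not tested, except that fewer members or cells enter.

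Ratios past 1.5-fold that changed sign all rest on few UMIs. In macrophage-like cells Ndufa4l2 (-0.83) became 0.014 with a 5% cap, 0.10 with a 20% cap, 0.028 in the UMI window and 0.60 in female cells, and Cox6a2 (0.59) became -0.97 in female cells. In fibroblast-like cells Cox7b2 (2.58) became -1.04 in female cells and Cox8b (-1.44) became 0.32 in Entpd2 Cpz. mt-Atp8, mt-Nd3 and mt-Nd4l kept their direction in all 4 classes under every setting run, and mt-Nd4l in macrophage-like cells (0.59) fell below 1.5-fold in several (lowest 0.53). Other alternatives gave 79 of 96 planned summary values within the limits set. Some of these could not change. SMC-like cells are 1 cluster, so the largest-cluster setting leaves their values as they were. All mitochondrial members reach 50 UMIs in SMC-like and fibroblast-like cells, so that floor leaves their medians as they were. Counts of 10 UMIs resolve only large differences, and endothelial-like cells hold only 64 and 46 cells.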
